A study of Mus musculus with 32 samples.

Results

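The comparison set d8 line 1 against d8 line 2, a pair of mouse embryonic stem (ES) cell lines of strain 129 that carry the same genotype, GFP-CTCF-Del8. Both express CTCF fused to green fluorescent protein and without zinc finger 8, one of the DNA-binding modules of the protein. Line 1 was sampled 3 times for RNA-seq (samples 1A, 1B and 1C) and line 2 was sampled 3 times (2A, 2B and 2C), so 6 of the 14 RNA-seq samples of the series entered the contrast. The d8 line 3, of the same genotype (3A and 3B), and the GFP-CTCF lines GC line 1 and GC line 2, with 3 samples each and the full set of zinc fingers, gave reference values. Genes were taken where mean expression reached 1 RPKM (a read count divided by exon length and library size) in either line, which left 12332 of 24940 genes. Each line is a single line, so a difference between lines cannot be told apart from a difference between the cultures that were sampled, and the p-values rest on the variation among samples of the same line, part of which may be technical.

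CTCF binds DNA through a row of zinc fingers and, together with the ring-shaped cohesin complex, holds the borders of chromatin loops and domains. ES cells come from the early embryo and express Pou5f1, Sox2 and Nanog, transcription factors that keep them pluripotent. Cultures of ES cells can hold a few cells that resemble primitive endoderm, the embryonic layer that lines the yolk sac and lays down a basement membrane of laminin and collagen IV. ES cell lines are also known to gain and lose chromosomes or parts of them in culture. The ES cell identity was present in both lines, with Pou5f1 at 605, 610 and 580 RPKM in line 1 and at 538, 607 and 552 RPKM in line 2.

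Depth, read back from the steps of the RPKM values, was 14.3 to 16.7 M reads per library. Samples 1A and 1B were closer to each other than the other samples of the lines in triplicate. Their chi-square over genes with at least 10 reads was 3.18 per degree of freedom, against 7.96 to 22.9 for the other pairs of those lines and 2.34 for samples 3A and 3B. Sampling noise alone gives a value near 1, so they differed by more than that and were counted as separate samples. The chi-square does not show whether they came from separate cultures, and the labels do not say. When their mean was counted as 1 sample, 127 genes passed the test in place of 408. Of the X genes named below, that fit lost the calls of Dusp9, Map7d3, Msn, Gabra3, AU015836 and Taf7l. It also lost those of Bcat2, Nup62, Cox7b2, Lefty1, Pfkp, Gpx4, Cat, Ifitm1, Smad5, Cbx7, Rnf2, Mcts2 and Cdkn1c. Krt8, Krt18, Col4a1, Col4a2 and other endoderm genes, given with their list, were lost too. For the genes listed here by name, its limma adjusted p was from 0.053 (Dusp9) to 0.19 (Cat).

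Ctcf itself did not pass the test between the lines. It stood at 31.1, 31.2 and 23.2 RPKM in line 1, at 30.8, 32.2 and 35.9 RPKM in line 2 and at 31.8 and 37.2 RPKM in line 3. Sample 1C was the lowest of these and the lines overlapped. The log2 difference, line 1 minus line 2 on the log2(RPKM + 1) scale as throughout, was -0.21 (SE 0.13, limma adjusted p = 0.39). RPKM over the whole gene does not show whether the zinc finger was present.

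Between the lines, 408 of 12332 genes differed, which is 3.31% of those tested (limma, two-sided, adjusted over all genes tested, threshold 0.05). In line 1, 220 genes were higher (1.78%) and 188 were lower (1.52%). A log2 difference of at least 1 was met by 55 of the 408 (0.446% of genes tested), 23 higher (0.187%) and 32 lower (0.259%). The median absolute log2 difference of the genes called was 0.60, and the median SE over all genes was 0.12. The median log2 difference over all genes was -0.02. Most genes called, 406, had no overlap between the 3 samples of each line, but that also held for 1419 genes that were higher (11.5% of those tested) and 1757 that were lower (14.2%) in all. The number of genes called rested on single samples. It was 127 with the mean of samples 1A and 1B as 1 sample, 130 and 134 without 1A or 1B, 260 and 263 without 2A or 2B, 280 without 2C and 564 without 1C. Without 1C, line 1 held only the close samples 1A and 1B. In all 6 fits that left out 1 sample, 112 of the 408 genes were called, 71 of them higher and 41 lower in line 1.

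**Figure D1:**
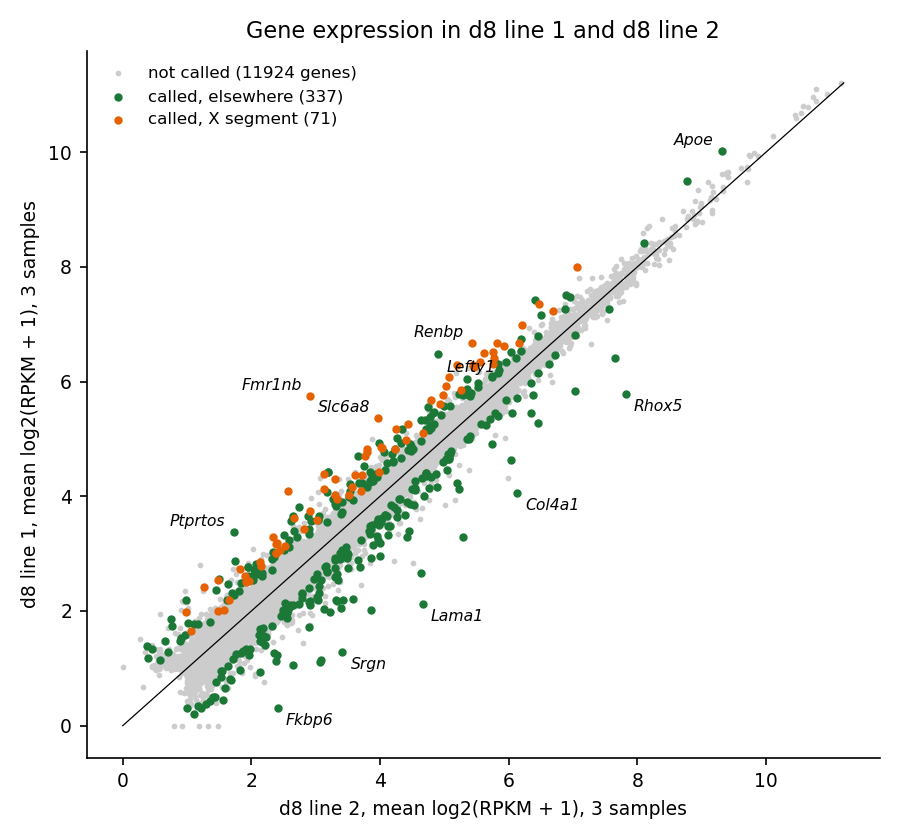
Each point is 1 of the 12332 genes tested, placed by its mean log2(RPKM + 1) over 3 samples of d8 line 2 (horizontal axis) and d8 line 1 (vertical axis), with the diagonal marking equal levels. Grey points were not called, green points were called, and orange points are the 71 called genes of the X chromosome segment, all of them above the diagonal.

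Called genes without overlap, at 2 RPKM or more in the higher line, were ranked by log2 difference. Chromosome X held 6 of the 12 highest in line 1, namely Fmr1nb, Mcf2, Slc6a8, AU015836, Renbp and Gabra3. Their values are given with the X chromosome. The others lay on chromosomes 1, 2, 5 and 7.

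Lefty1, which encodes a secreted inhibitor of Nodal signalling, stood at 97.0, 94.8 and 76.3 RPKM in line 1 and at 30.1, 16.5 and 47.9 RPKM in line 2. The lines did not overlap, and line 3, at 90.9 and 79.6 RPKM, was at the level of line 1. Its log2 difference was 1.59 (SE 0.37, limma adjusted p = 0.033). This call was lost without sample 1A, 1B, 2A or 2B (limma adjusted p = 0.14, 0.13, 0.077 and 0.11) and with the mean of 1A and 1B as 1 sample (0.13).

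Nnat, an imprinted gene that encodes neuronatin, was at 21.1, 18.2 and 22.5 RPKM in line 1 and 8.88, 7.09 and 8.64 RPKM in line 2 (log2 difference 1.23, SE 0.16, limma adjusted p = 0.00086). Line 3 again lay with line 1, at 19.8 and 20.5 RPKM. Acss1, a mitochondrial acetyl-CoA synthetase, was at 20.9, 21.5 and 19.3 RPKM in line 1 and 9.08, 6.93 and 8.54 RPKM in line 2 (log2 difference 1.24, SE 0.18, limma adjusted p = 0.0022). For Acss1, line 3 lay with line 2, at 7.36 and 6.77 RPKM. Ptprtos, annotated as a transcript on the strand opposite Ptprt, had a log2 difference of 1.66, but the counting is not stated to use strand, so reads of the pair cannot be told apart. The remaining members were Cox7b2 (log2 difference 1.20) and 0610005C13Rik (1.13). Cox7b2 rested on a mean of 18.7 reads per library and was not called without sample 1A or 1B (limma adjusted p = 0.059 and 0.06).

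The 12 genes lowest in line 1 by the same ranking included 5 of the primitive endoderm list, Lama1, Col4a1, Col4a2, Cubn and Dab2. Fkbp6, a co-chaperone known from meiosis, was nearly silent in line 1, at 0.456, 0.222 and 0.052 RPKM, and stood at 5.33, 5.05 and 2.91 RPKM in line 2 (log2 difference -2.11, SE 0.24, limma adjusted p = 0.00034). Line 3 was also low, at 0.408 and 0.502 RPKM. Rhox5, a homeobox gene of an X-linked cluster, stood at 61.0, 60.0 and 43.3 RPKM in line 1 and at 211, 238 and 226 RPKM in line 2 (log2 difference -2.03, SE 0.28, limma adjusted p = 0.0016). Its level in line 3, 82.4 and 74.1 RPKM, was close to that of line 1, and GC line 2 alone spanned 79.1 to 232 RPKM.

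Srgn, which encodes the proteoglycan serglycin, was at 0.594, 1.20 and 3.10 RPKM in line 1 and at 12.3, 13.1 and 5.50 RPKM in line 2 (log2 difference -2.13, SE 0.31, limma adjusted p = 0.0024). S100g, a calcium-binding protein gene, was at 1.18, 0.573 and 1.89 RPKM against 8.2, 8.49 and 5.64 RPKM (log2 difference -1.96, SE 0.21, limma adjusted p = 0.00029). In both genes the samples of the lines did not overlap, sample 1C was the highest of line 1 and sample 2C the lowest of line 2. The keratin gene Krt8 was also in the group, with a log2 difference of -1.42. Mir1981 had a log2 difference of -1.59, but the 81 bases of its annotation held a mean of 4 reads per library, and such reads do not measure the mature miRNA.

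Chromosome X supplied 72 of the 220 genes higher in line 1 and 8 of the 188 lower ones, from 450 genes tested. Over all genes, 1.78% were called higher and 1.52% lower. Along the chromosome, 71 of the 72 lay in a single stretch from Smim10l2a to Msn (chrX:56374517-96168553, build mm10, 39.8 Mb long). The stretch was chosen after its values were seen, as the run of genes higher in line 1, so its count is a description. All 105 genes tested in it had a positive difference, with a median of 0.63, and 91 of them had no overlap between the lines. Of all genes tested, 45.6% had a positive difference and 11.5% were higher in line 1 with no overlap. Before the stretch, 144 genes of the X had a median of 0.01, and after it 201 genes had a median of -0.05. The change was sharp at the far end. There Las1l and Msn were inside, with log2 differences of 0.57 and 0.70, while Heph, just outside, was at 0.57 without passing the test and the next genes, Eda2r and Yipf6, were at -0.12 and -0.05. At the near end, Smim10l2a inside was at 0.51 and Zfp449 outside at 0.17, while Rtl8b and Rtl8c, farther out, were at 0.44 and 0.50 and did not pass the test.

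**Figure D2:**
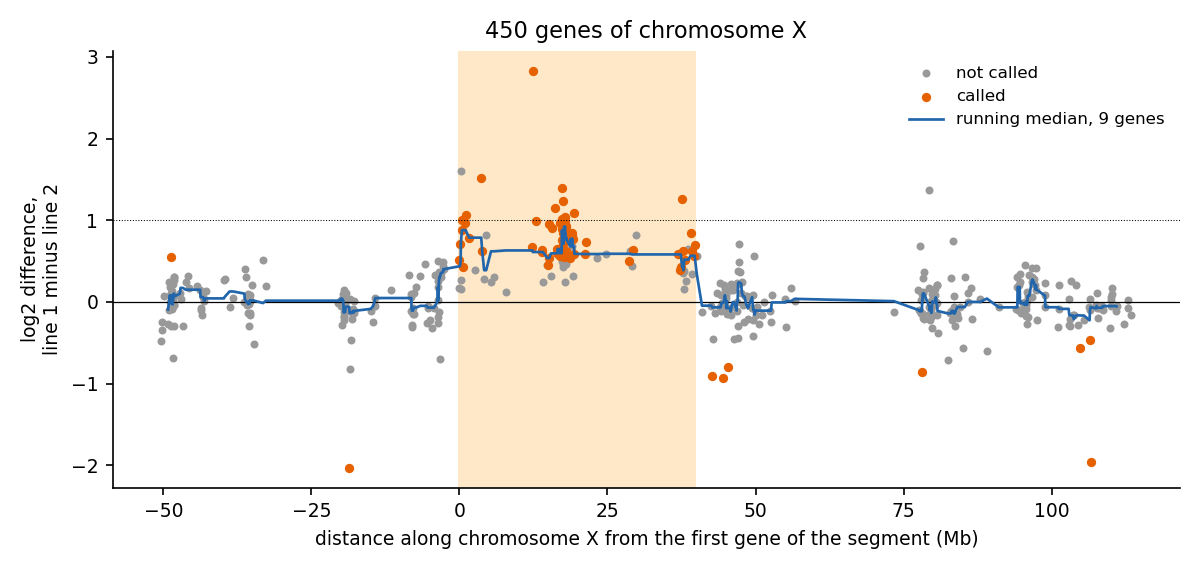
Log2 difference between d8 line 1 and d8 line 2 for the 450 genes tested on chromosome X (vertical axis), by distance in Mb from the first gene of the segment (horizontal axis). Shading marks the 39.8 Mb segment, orange points are genes called, the blue line is the running median of 9 genes and the dotted line marks a difference of 1. All 105 genes within the shading lie above 0.

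The 52 genes of the segment with 10 RPKM or more had a median line 1 to line 2 ratio of 1.75, with quartiles of 1.54 and 1.94. For the 6106 other genes at that level it was 0.995, with quartiles of 0.922 and 1.07. In the same 52 genes the median ratio to line 2 was 1.02 for line 3, 0.966 for GC line 1 and 1.02 for GC line 2. Of the 5 lines, line 1 alone had the raised level. All 3 samples of line 1 showed it, with segment medians of 0.64, 0.67 and 0.63 above the mean of line 2, while the other 11 libraries lay between -0.04 and 0.08. The number of genes of the segment called was 45 with samples 1A and 1B as 1, and 44 to 68 with any 1 sample left out. No genome copy number was measured, so the number of copies of this stretch in line 1 was not tested.

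**Figure D3:**
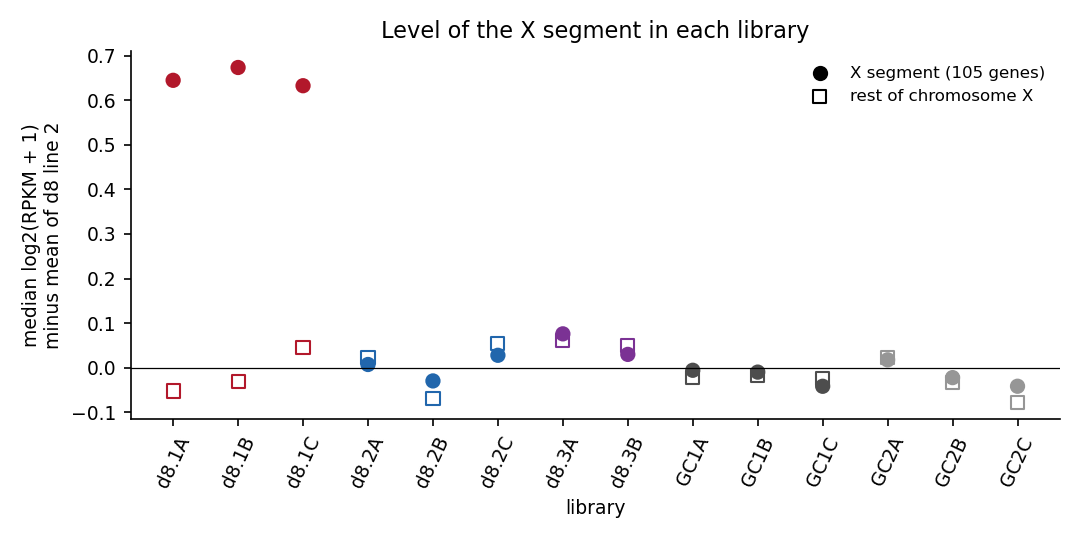
Median difference of each RNA-seq library from the mean of d8 line 2, in log2(RPKM + 1), for the 105 genes of the X segment (filled circles) and for the rest of chromosome X (open squares). Colours mark the 5 lines. The 3 libraries of line 1 stand at 0.63 to 0.67 for the segment, and no other library exceeds 0.08.

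Genes of many unrelated functions made up the segment. Fmr1nb, the neighbour of Fmr1 and known mainly from testis, was the most different gene of the whole comparison. It stood at 54.3, 52.6 and 51.7 RPKM in line 1, at 5.13, 7.82 and 6.99 RPKM in line 2 and at 8.37 and 7.22 RPKM in line 3. Its log2 difference was 2.83 (SE 0.15, limma adjusted p = 4.6e-07), and the ratio of the line means, 7.95, was well above the median ratio of the segment. In the GC lines it was between these levels, with 18.6 to 20.5 RPKM for GC line 1, and with 26.1 to 39.7 RPKM for GC line 2.

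Slc6a8, the creatine transporter, stood at 41.1, 40.5 and 39.2 RPKM in line 1 and at 14.6, 17.9 and 12.2 RPKM in line 2 (log2 difference 1.39, SE 0.12, limma adjusted p = 5e-05). Renbp, an enzyme of amino sugar metabolism, stood at 96.5, 97.4 and 110 RPKM and at 46.6, 41.3 and 39.1 RPKM (log2 difference 1.24, SE 0.09, limma adjusted p = 2.7e-05). Mcf2, a guanine nucleotide exchange factor, was at 17.2, 18.9 and 12.7 RPKM against 3.90, 5.29 and 5.89 RPKM (log2 difference 1.51, SE 0.17, limma adjusted p = 0.00034). None of these genes overlapped between the lines, and line 3 was at the level of line 2 in each. AU015836 (log2 difference 1.26) and Gabra3, a subunit of the receptor for the transmitter GABA (1.15), were called too, but neither without 1A or 1B (limma adjusted p from 0.069 to 0.1), nor AU015836 without 2A or 2C (0.073 and 0.071).

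Other genes of the segment had ratios nearer the median of 1.75. The actin cross-linker Flna was at 271, 268 and 232 RPKM in line 1 and at 149, 117 and 133 RPKM in line 2, a ratio of means of 1.93. Idh3g, a subunit of mitochondrial isocitrate dehydrogenase, had a ratio of 1.86, the prefoldin subunit Vbp1 one of 1.71, and Dkc1, the dyskerin of ribosomal RNA modification and telomerase, one of 1.47. Toward the near end, the LIM protein gene Fhl1 had a ratio of 1.87, the microtubule-binding Map7d3 2.13 and Htatsf1 1.36. Toward the far end, moesin (Msn) had a ratio of 1.63, the DNA polymerase subunit Pola1 1.52, the ribosome biogenesis factor Las1l 1.49 and Maged1 1.44. Each of these was called higher in line 1, although Map7d3 was not without 1A, 1B, 2A or 2B (limma adjusted p from 0.06 to 0.15), nor Msn without 1A, 1B or 2A (from 0.051 to 0.072). Rpl10, with a ratio of 2.10, was called as well, but near-identical copies of it elsewhere in the genome can take its reads.

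Several genes of the other lists were called through this segment. Dusp9, a phosphatase that switches off ERK kinases, was at 64.9, 65.2 and 70.4 RPKM in line 1 and 32.7, 44.2 and 24 RPKM in line 2 (log2 difference 1.01, SE 0.19, limma adjusted p = 0.013). Without 1A or 1B its adjusted p from limma was 0.053. Nsdhl, an enzyme of cholesterol synthesis, had a log2 difference of 0.65. The X-inactivation centre lay outside the stretch, and none of its 6 genes tested was called. Xist, the RNA that silences an X chromosome, was at 1.72, 1.71 and 1.81 RPKM in line 1 and at 1.27, 1.70 and 1.11 RPKM in line 2, and its values cannot be told apart from those of the overlapping Tsix.

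A smaller shift lay on chromosome 7 between 40 and 50 Mb. Of 208 windows of 10 Mb with at least 20 genes, 4 had medians more than 0.2 from that of all genes, 3 on the X and this window, and the medians of the other windows lay between -0.19 and 0.09. Its 122 genes had a median of 0.19, with 18 called higher and 0 lower, against 1.78% and 1.52% of all genes. Part of the shift lay in short runs of higher genes, found after the values were seen. These were Tbc1d17 to Prmt1 (chr7:44840776-44986420, 3 called of 10), Trpm4 to Plekha4 (chr7:45303155-45554229, 4 of 13) and Bcat2 to Tmem143 (chr7:45570153-45917413, 3 of 17). Ftl1, the light chain of the iron store ferritin, was at 702, 674 and 785 RPKM in line 1 and at 474, 435 and 397 RPKM in line 2 (log2 difference 0.73, SE 0.11, limma adjusted p = 0.0039), although reads may be shared with copies of the gene. Bcat2, which breaks down branched-chain amino acids, had a log2 difference of 0.66, Ptov1 one of 0.58 and the nuclear pore gene Nup62 one of 0.48. Neither Bcat2 nor Nup62 was called without 1A or 1B (limma adjusted p from 0.064 to 0.078), nor Nup62 without 2C (0.058). Line 3 lay between the lines in these genes, for example at 104 and 101 RPKM for Bcat2 against 149, 148 and 131 RPKM in line 1 and 91.2, 89.5 and 88.3 RPKM in line 2.

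Most of the tested primitive endoderm genes were lower in line 1. Of the 21 genes of this list, 16 reached the level to be tested, 10 of these were called lower and Apoe was called higher, against 1.52% and 1.78% of all genes. The median log2 difference of the 16 was -1.01, against -0.02 over all genes. In bulk RNA, fewer cells of a type and less RNA per cell cannot be told apart. Of the 5 members below the level, Ttr, Afp and Hnf4a, known from more mature endoderm and liver, were at or near 0 in both lines. Foxa2 was at 0.135, 0.132 and 0.311 RPKM in line 1 and 0.735, 1.591 and 0.556 RPKM in line 2, with no overlap. Amn overlapped, at 0.332, 0.242 and 0.343 RPKM against 0.861, 1.287 and 0.303 RPKM.

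Genes of the basement membrane had the most negative values of the list, Lama1, Col4a1 and Col4a2, and also some of the smaller ones. Lama1, the alpha chain of laminin, stood at 2.34, 2.48 and 6.04 RPKM in line 1 and at 29.3, 41.0 and 11.8 RPKM in line 2. Every sample of line 1 was below every sample of line 2, with 1C the highest and 2C the lowest. The log2 difference was -2.55 (SE 0.36, limma adjusted p = 0.002), the most negative of the comparison. Col4a1 and Col4a2, the chains of collagen IV, moved together. Col4a1 stood at 11.7, 11.8 and 27.1 RPKM in line 1 and at 72.0, 111 and 40.8 RPKM in line 2 (log2 difference -2.07, SE 0.44, limma adjusted p = 0.02). Col4a2 was at 6.36, 7.08 and 14.8 RPKM against 36.4, 64.3 and 23.6 RPKM (log2 difference -2.0, SE 0.46, limma adjusted p = 0.034). Neither collagen gene was called without 1A, 1B, 2A or 2B (limma adjusted p from 0.063 to 0.15). Sparc, which binds collagen, had a log2 difference of -1.25 and Lamb1, the beta chain of laminin, one of -0.59, while Lamc1 was at -0.50 without passing the test (limma adjusted p = 0.086).

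The genes Col4a1 and Col4a2 start head to head on chromosome 8, and their promoters are printed because the pair, which moved together, shares a stretch of them. The sequences are RefSeq's for build GRCm38.p6, from 250 bases before to 50 bases after each start, 5′ to 3′ on the strand of each gene. Col4a1 is on the minus strand (chr8:11312777-11313076) and Col4a2 on the plus strand (chr8:11312555-11312854). Capitals mark the 78 bases that both windows hold (chr8:11312777-11312854), read from opposite strands.
Col4a1: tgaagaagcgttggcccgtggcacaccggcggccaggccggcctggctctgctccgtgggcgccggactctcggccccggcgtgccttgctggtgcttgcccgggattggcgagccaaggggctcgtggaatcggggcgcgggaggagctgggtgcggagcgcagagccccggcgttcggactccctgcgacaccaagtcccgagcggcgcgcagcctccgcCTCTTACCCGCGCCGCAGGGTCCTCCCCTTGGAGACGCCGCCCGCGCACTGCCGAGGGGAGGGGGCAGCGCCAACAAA
Col4a2: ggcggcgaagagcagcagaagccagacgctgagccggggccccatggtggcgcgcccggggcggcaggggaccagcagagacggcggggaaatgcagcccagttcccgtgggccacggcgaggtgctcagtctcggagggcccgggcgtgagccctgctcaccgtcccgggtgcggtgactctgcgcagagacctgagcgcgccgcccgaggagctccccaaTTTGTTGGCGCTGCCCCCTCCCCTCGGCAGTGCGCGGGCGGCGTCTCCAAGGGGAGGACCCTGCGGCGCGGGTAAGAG
The windows held 37 and 33 CG pairs, against a median of 7 in all 32851 promoter windows of the table. No CTCF peak of the GC list lay within 5 kb of either start.

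Some genes of receptors, adaptors and transcription factors were also lower, again with 1C the highest sample of line 1 and 2C the lowest of line 2 in each gene called. Cubn, an endocytic receptor, was at 0.981, 0.834 and 2.03 RPKM in line 1 and at 9.98, 9.42 and 4.28 RPKM in line 2 (log2 difference -1.93, SE 0.24, limma adjusted p = 0.00079). Dab2, its endocytic adaptor, was at 2.15, 2.67 and 4.83 RPKM against 16.6, 17.9 and 8.15 RPKM (log2 difference -1.83, SE 0.28, limma adjusted p = 0.0032). Gata6, a transcription factor that drives primitive endoderm, was at 0.988, 1.17 and 1.45 RPKM against 4.04, 7.96 and 2.16 RPKM (log2 difference -1.25, SE 0.26, limma adjusted p = 0.019). The receptor gene Pdgfra (log2 difference -1.11) was also called lower. Gata4, Sox7 and Sox17, at -0.62, -0.80 and -0.62, did not pass the test. Apoe, a lipid carrier that ES cells also express at a high level here, went the other way, at 949, 959 and 1210 RPKM in line 1 and 653, 713 and 558 RPKM in line 2 (log2 difference 0.69, SE 0.14, limma adjusted p = 0.013). Apoe was not called without 2C.

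The 16 tested genes summed to 1166, 1184 and 1526 RPKM in samples 1A, 1B and 1C and to 1231, 1458 and 938 RPKM in samples 2A, 2B and 2C, which overlap, with Apoe as the largest part. Without Apoe, the 15 other tested genes of the list summed to 217, 225 and 316 RPKM in samples 1A, 1B and 1C and to 578, 745 and 381 RPKM in samples 2A, 2B and 2C. Line 3, at 387 and 399 RPKM, was near the lowest sample of line 2, and the GC libraries spanned 286 to 567 RPKM. The count of 10 lower genes fell to 3, namely Cubn, Dab2 and Lama1, when samples 1A and 1B counted as 1 and also without 1A, 1B or 2A. It was 4 without 2B, 10 without 1C and 13 without 2C. It was 5 with the 6 libraries of lines 1 and 2 alone and 6 with the 8 d8 libraries alone.

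**Figure D4:**
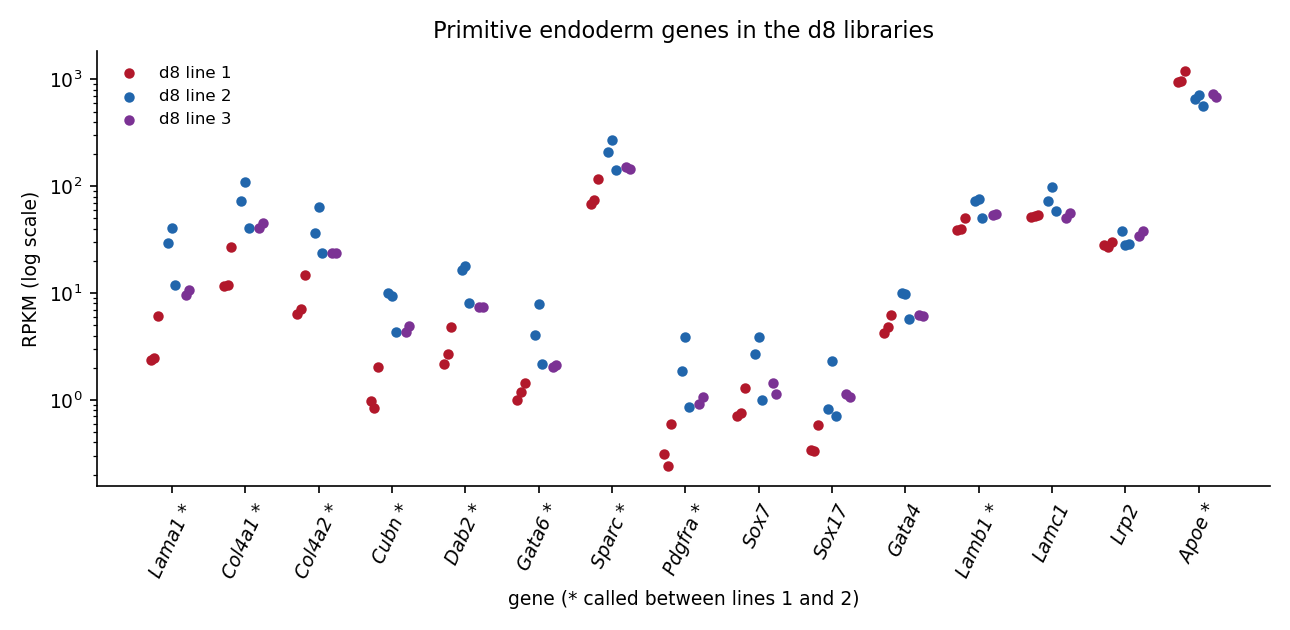
RPKM of 15 of the 16 tested primitive endoderm genes in each d8 library, on a log axis, with 1 point per library and colours for d8 lines 1, 2 and 3. Genes are ordered by the log2 difference and asterisks mark genes called between lines 1 and 2. For Lama1, line 1 lies at 2.34 to 6.04 RPKM and line 2 at 11.8 to 41.0 RPKM, while Apoe at the right is the 1 gene called in the opposite direction.

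Keratins led the trophoblast list, which holds genes of the outer layer of the early embryo. Of its 14 genes, 12 were tested, 2 were called lower and none higher, against 1.52% and 1.78% of all genes, and the median log2 difference was -0.49 with all 12 below 0. Krt8 was at 18.6, 16.8 and 42.1 RPKM in line 1 and at 53.8, 64.7 and 78.1 RPKM in line 2 (log2 difference -1.42, SE 0.28, limma adjusted p = 0.015). Its filament partner Krt18 was at 44.8, 42.4 and 92.2 RPKM against 109, 132 and 153 RPKM (log2 difference -1.20, SE 0.26, limma adjusted p = 0.025). In both, sample 1C lay between the other samples of line 1 and those of line 2. Neither was called when samples 1A and 1B counted as 1, or without 1A, 1B or 2C, and Krt18 was not called without 2B. These keratins are expressed in many epithelia. Of the 12 tested genes of the list, 8 were lower in line 1 with no overlap, against 14.2% of all genes. The transcription factor genes Cdx2 and Elf5 were below the level to be tested, at 0.127 to 0.775 RPKM and 0 to 0.031 RPKM over the 6 samples.

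In the germline list, 4 genes were called lower in line 1. Of its 17 genes, 16 were tested, none was called higher and 12 did not pass the test, against 1.52% of all genes called lower, and the median log2 difference was -0.53. Ddx4, an RNA helicase of germ cells, was at 15.9, 15.4 and 17.9 RPKM in line 1 and at 42.6, 32.6 and 34.6 RPKM in line 2 (log2 difference -1.11, SE 0.15, limma adjusted p = 0.0013). Piwil2, which binds small RNAs that silence transposons, was at 3.20, 3.63 and 3.65 RPKM against 9.82, 8.93 and 8.48 RPKM (log2 difference -1.16, SE 0.13, limma adjusted p = 0.00031). Stk31 was at 2.59, 2.82 and 4.24 RPKM against 10.1, 10.5 and 7.98 RPKM (log2 difference -1.34, SE 0.19, limma adjusted p = 0.0017). Like Cubn, Dab2 and Lama1 of the endoderm list, these 3 were called in every fit that left out 1 sample and with samples 1A and 1B as 1. The X-linked Taf7l, a relative of a general transcription factor subunit, had a log2 difference of -0.85 and was not called with 1A and 1B as 1, or without 1A or 1B. Line 3 was nearer line 1 in Ddx4 (21.3 and 19.8 RPKM), Piwil2 (4.31 and 4.26 RPKM) and Stk31 (3.35 and 3.11 RPKM).

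Pluripotency genes did not pass the test. None of 14 core genes was called, with a median log2 difference of 0.10, and none of 15 naive genes, with a median of 0.03. Nanog was at 55.7, 55.9 and 73.9 RPKM in line 1 and at 55.3, 74.3 and 58.2 RPKM in line 2, and the lines overlapped. Of 15 formative and primed genes, which mark cells on the way out of naive pluripotency, 14 were positive with a median of 0.41. Only the related ETS factor genes Etv5 and Etv4, targets of FGF signalling, passed, and in opposite directions. Of all genes, 1.78% were called higher and 1.52% lower. Etv5 was at 54.4, 53.1 and 55.4 RPKM in line 1 and 37.3, 40.7 and 40.9 RPKM in line 2 (log2 difference 0.45, SE 0.07, limma adjusted p = 0.0045). Etv4 was at 10.0, 8.57 and 10.1 RPKM against 21.2, 25.6 and 16.8 RPKM (log2 difference -1.06, SE 0.12, limma adjusted p = 0.00044). Otx2 was higher in all 3 samples of line 1 (66.6 to 79.6 RPKM against 27.8 to 50.1 RPKM) and missed the threshold (log2 difference 0.87, SE 0.37, limma adjusted p = 0.22), as did Fgf5 (17.4 to 20.8 RPKM against 2.46 to 13.1 RPKM). Such a lack of overlap held for 11.5% of all genes in that direction.

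In the signalling lists, few members passed. The shares over all genes were 1.78% called higher and 1.52% called lower. Of 16 genes of FGF and ERK, Etv5 was higher and Etv4 and Spred1, an inhibitor of ERK activation, were lower. Spred1 had a log2 difference of -0.81 (SE 0.12, limma adjusted p = 0.0028). Of 12 Nodal genes, Lefty1 was called, while the co-receptor gene Tdgf1 was at 263, 270 and 265 RPKM in line 1 and 223, 227 and 250 RPKM in line 2 without passing. Of 11 genes of LIF and STAT3, Lifr, which encodes a subunit of the LIF receptor, was lower, at 3.82, 3.85 and 3.48 RPKM against 6.24, 8.88 and 6.40 RPKM (log2 difference -0.78, SE 0.13, limma adjusted p = 0.0064). Of 13 tested genes of BMP and Id, Dusp9 was higher and Smad5, a signal transducer of BMP, was lower (log2 difference -0.37), a call lost without any 1 sample other than 1C (limma adjusted p from 0.054 to 0.18). None of 9 tested Wnt targets was called.

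Lists of chromatin and imprinting held few genes that were called, where 1.78% of all genes were called higher and 1.52% lower. None of 17 tested genes of CTCF and cohesin was called, with a median log2 difference of -0.04. In the Polycomb list, Cbx7 was higher (log2 difference 0.33) and Rnf2 lower (-0.36), of 25 tested. All 22 tested clustered protocadherins were lower in line 1 with no overlap, at a median of -0.40, against 14.2% of all genes that were lower with no overlap. None was called with all samples, while all 22 were called lower without sample 1C and none without any other single sample. The fit without 1C rested, for line 1, on the close samples 1A and 1B alone. They share their 3′ exons, so their reads are largely the same and they are close to a single measurement. Pcdhgc3 was at 5.90, 5.29 and 7.49 RPKM in line 1 and at 9.73, 8.81 and 8.91 RPKM in line 2 (log2 difference -0.50, SE 0.13, limma adjusted p = 0.061). Of 33 tested imprinted genes, Nnat and Mcts2 were higher and Cdkn1c, an inhibitor of the cell cycle, was lower (log2 difference -0.58). The calls of Cbx7, Rnf2, Mcts2 and Cdkn1c were each lost without at least 4 of the 6 samples in turn (limma adjusted p from 0.067 to 0.18).

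Metabolic and stress lists also held few called genes, where 1.78% of all genes were called higher and 1.52% lower. Pfkp, an enzyme of glycolysis, was higher, at 47.8, 48.2 and 42.1 RPKM in line 1 and 27.5, 25.1 and 25.1 RPKM in line 2 (log2 difference 0.81, SE 0.17, limma adjusted p = 0.019), as the 1 gene called of 23 of glycolysis and hypoxia. In the list of oxidative stress and metallothioneins, Gpx4, which repairs oxidised lipids, was higher (log2 difference 0.47), while Gclc, an enzyme of glutathione synthesis (-0.40), and the catalase gene Cat (-0.32) were lower, of 16. The membrane protein genes Ifitm3 (log2 difference 0.61) and Ifitm1 (0.51) were higher among 15 tested interferon and antigen presentation genes. Pttg1, the securin that holds sister chromatids together until anaphase, was at 1.91, 2.60 and 4.82 RPKM in line 1 and at 9.47, 9.06 and 6.62 RPKM in line 2 (log2 difference -1.24, SE 0.22, limma adjusted p = 0.0069), the 1 gene called of 24 of mitosis and replication. In the ribosome list, 62 of 79 genes were positive, with a median of 0.17, and Rpl10 of the X segment was the 1 gene called. Calls lost without single samples were those of Pfkp (1A, 1B, 2B or 2C; limma adjusted p from 0.061 to 0.093), Gclc (1A; 0.073), Ifitm1 (each but 2A; from 0.058 to 0.1), Gpx4 (each of the 6; from 0.058 to 0.12) and Cat (each but 1C; from 0.076 to 0.19). Bax, a p53 target that promotes cell death, was higher in all 3 samples (376 to 451 RPKM against 262 to 306 RPKM) and missed the threshold (limma adjusted p = 0.055). Over all genes, 11.5% were higher in line 1 with no overlap, and 17 of the 21 tested p53 targets had a negative difference.

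None of the tested genes was called in the lists of primitive streak and mesoderm (5 tested), neuroectoderm (8), fibroblasts or feeder cells (9), 2-cell-like cells (1), p53 targets (21), the integrated stress response (19), heat shock and ER chaperones (15), the BCL2 family (13) and Hox clusters (4). In the lists of contractile genes (18 tested), cholesterol synthesis (23) and oxidative phosphorylation (74), a single gene each was called, namely Flna, Nsdhl and Cox7b2. The share called over all genes was 3.31%. The 8 Y-linked genes of the list were below the level to be tested. The summed level of the 9 fibroblast or feeder cell genes was 278 to 352 RPKM in line 1 and 330 to 397 RPKM in line 2. Their median log2 difference was -0.53, with 6 of the 9 negative and 3 positive.

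Line 3 took different sides for different groups. Its place was set on a scale where 0 is the mean log2 level of line 1 and 1 that of line 2. Over all 12332 genes, 50.6% were nearer line 2. For the 71 called genes of the X segment, 70 were nearer line 2, with a median place of 0.96. Of the 149 other genes that were higher in line 1, 98 (65.8%) were nearer line 2, with a median of 0.69. For the 188 genes lower in line 1, 100 (53.2%) were nearer line 2 and the median was 0.53, about midway. The genes were chosen for a difference between lines 1 and 2, so these counts are a description. Among the genes given above, line 3 was near line 1 in Lefty1, Nnat, Fkbp6, Rhox5 and the germline genes, near line 2 in Acss1, Krt8 and Krt18, and between the lines in Lama1, Cubn and Dab2.

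**Figure D5:**
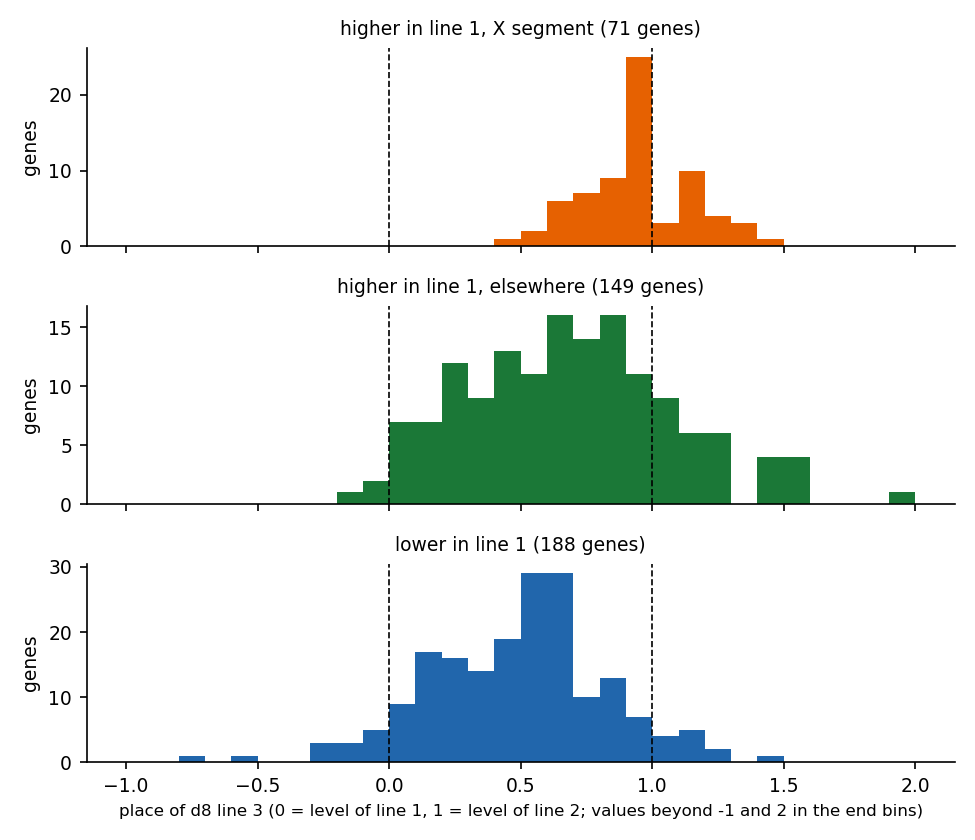
Number of genes (vertical axes) by the place of d8 line 3 between d8 line 1, at 0, and d8 line 2, at 1 (horizontal axis, both marked by dashed lines). The 71 called genes of the X segment gather near 1 (median 0.96), the 149 other genes higher in line 1 spread more widely (median 0.69), and the 188 lower genes centre at 0.53.

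CTCF peaks near gene starts were counted in the deposited lists, with no test. Of the 408 genes, 42 (10.3%) had a peak of the GC list within 1 kb of the start, against 1790 of 12332 (14.5%) over all genes tested. A Del8 peak overlapped in 25 of the 42 (59.5%), against 58.4% over all genes. In the X segment, 5 of 105 genes had a GC peak within 1 kb. The segment held 86 GC peaks, of which 31 (36.0%) had an overlapping Del8 peak, against 30.3% of 465 on the whole X and 42.0% of all 26729. Lama1, for example, had a GC peak within 1 kb that was also in the Del8 list, while Slc6a8, Ctcf and Nup62 each had one that was not. Each peak list came from 1 library, and the labels do not say which d8 line the Del8 library came from. The GC list rested on 8.09 M tags (reads) and the Del8 list on 5.59 M. Absence from the Del8 list therefore does not show that binding was lost. Peak positions were taken as mm10 without conversion.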

How the data were processed

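The authors deposited RPKM values for 24940 genes in 14 RNA-seq libraries (stranded mRNA kit, single-end reads of 50 bp, per the labels' protocols). Per the file headers, reads were counted over exons with HOMER on mm10, with 1 transcript per gene and no strand setting. The deposited CTCF peak lists came from HOMER findPeaks at a false discovery rate of 0.001, per the file headers, and the score column of the deposited lists was not used. HISAT2, Bowtie, SAMtools, deepTools and DESeq2 appear in the submitters' processing notes, without versions. The notes of the series name the builds mm9 and mm10, and peak positions were compared with the mm10 gene starts as given, without conversion. A table with 5 per-library columns that match no sample was not used, and the Med-Seq and other ChIP-seq samples were not analysed here.

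Values were analysed as log2(RPKM + 1), a scale that understates changes of low genes, with limma 3.58.1 (R 4.3.3; trend in the variance, two-sided, Benjamini-Hochberg over 12332 genes, threshold 0.05). All 14 libraries shared 1 estimate of the spread, with the line as factor. Depth was read back from the RPKM steps, and all values checked were whole reads within 0.1 read, so the precision of low genes is limited by counting. Tests on simulated data gave more false calls than the threshold allows, and the limits set for these tests followed that result. The simulation used the same spread for every gene and library. The false calls lay mostly in genes with few reads, so a minimum of 20 reads was added as an alternative. Of the 408 genes called, 5 lay below it, namely Cox7b2, Lgals7, Mir1981, Pgc and Snora24.

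The rule for named genes took Ctcf, the 12 highest and 12 lowest differences among called genes with no overlap and at least 2 RPKM in the higher line, up to 4 called members of each of 35 lists (or, with fewer than 2 called, up to 2 of the highest level), and the 4 most abundant called genes of each window that stood apart. A few list members and genes at the ends of the X segment were named besides, after their values were seen. A few genes that the rule takes are not reported here. The members and lists were chosen with earlier results of these data known. Coordinates are 1-based.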

Additional observations from a re-analysis of the deposited data

How the results depend on the processing

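The number of genes called moved most with the treatment of single samples. With the mean of samples 1A and 1B as 1 sample it was 127 (78 higher, 49 lower, 34 with a log2 difference of at least 1, 45 in the X segment, 3 lower in the primitive endoderm list). Leaving out 1 sample of the 6 at a time gave 130 to 564 genes, 83 to 229 higher, 46 to 335 lower, 34 to 87 with a log2 difference of at least 1, 44 to 68 in the segment and 3 to 13 lower endoderm genes. With the 6 libraries of lines 1 and 2 alone it was 235 (77 lower, 5 endoderm genes), and with the 8 d8 libraries alone 621 (348 higher, 6 endoderm genes). Without the genes of the X segment, an alternative added after seeing the data, it was 259 (117 higher). The endoderm count was 5 without a filter on RPKM, and 90 genes had a log2 difference of at least 1 with a pseudocount of 0.1. Median ratio scaling gave 259 higher and 160 lower genes. With a mean of at least 20 reads, also added after seeing the data, 440 genes were called, 402 of them among the 408. The median of the X segment was 0.74 and 0.68 with pseudocounts of 0.1 and 0.5 and 0.77 at a mean of 5 RPKM, and that of the X window from 70 to 80 Mb, 0.71, was 0.81, 0.76 and 0.80. Among genes with a log2 difference of at least 1, line 3 was nearer line 2 in 82.6% of the higher and 65.6% of the lower ones. Within 5 kb, 27.0% of the genes called had a GC peak, against 30.7% of all genes tested. Samples with the same letter in lines 1 and 2 had correlations of their deviations of -0.17, 0.11 and -0.04. Samples with unlike letters had -0.19 to 0.25. These values do not settle whether the letters pair the samples, and the main fit did not pair them. The fit with a replicate block by letter called 321 genes, 301 of them shared. Of 65 named genes called, 39 passed in all 18 alternatives that hold them and 0 reversed. No chromosome stood apart by its median, so the fit without such chromosomes was not run.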
